A study of Saccharomyces cerevisiae with 12 samples.

Results

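This comparison set budding yeast (Saccharomyces cerevisiae) whose Euc1 protein carries a lysine-to-arginine exchange, euc1-K231R (strain MJK612), against its own wild type (strain Y0003) on Affymetrix GeneChip Yeast Genome 2.0 arrays. The arrays were chosen by their titles, 3 of euc1-K231R and 3 of wild type in experiment B, which are 6 of the 12 arrays of the series. The other 6 arrays, of experiment A, hold an EUC1 deletion (euc1∆, strain MJK448) and a wild type of strain Y0003 labelled for that experiment. All strains grew untreated at 30°C in YP medium with 2% glucose until the OD600 reached 0.7 to 1, and 300 ng of their total RNA went into the labelling. The 3 arrays of a group are biological replicates according to the series. Each mutant is represented by 1 strain, and the euc1-K231R allele carries a URA3 marker, so the exchange, the marker and anything else particular to that strain cannot be told apart.

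Euc1 (Ymr111c) resembles a transcription factor and binds a DNA motif in ub-hotspots, sites on yeast chromatin where ubiquitin conjugates gather together with Slx5/Slx8, a ubiquitin ligase that is directed by SUMO. SUMO is a small protein that is attached to lysines of other proteins and can be recognised by such ligases. The exchanged lysine is the main residue of Euc1 to which SUMO is attached, and an arginine keeps the positive charge but cannot take up SUMO. The comparison therefore asks which transcripts differ when Euc1 is made but cannot be modified at this residue.

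Levels are RMA values on the log2 scale, given first for the 3 euc1-K231R arrays and then for the 3 wild-type arrays, each in the order of replicates 1, 2 and 3. Fold changes are log2 values, euc1-K231R minus wild type, with the standard error of the limma fit over 6 arrays. Adjusted p-values are those of limma with Benjamini-Hochberg adjustment over 5581 genes, and genes under 0.05 are referred to as called. Probe sets for the fission yeast S. pombe, which have no target here, served as background, with a 95th percentile of 5.33. The median level of the genes was 10.58 to 10.63 on the euc1-K231R arrays and 10.57 to 10.62 on the wild-type arrays. The r between replicates, across genes, was 0.997 to 0.998 in euc1-K231R and 0.998 to 0.999 in wild type, and the r between a mutant and a wild-type array was 0.995 to 0.998. The median SD of a gene was 0.068 in euc1-K231R and 0.059 in wild type. Within the mutant group replicates 1 and 3 lay farthest from the others, with 186 and 184 genes more than 0.3 from the mean of the remaining pair, against 42 for replicate 2. In wild type this count was highest for replicate 2, at 174, of which 143 were higher.

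EUC1 (YMR111C, chromosome XIII) had levels of 8.19, 8.15 and 8.12 in euc1-K231R cells and 9.18, 9.25 and 9.09 in wild-type cells. All 6 arrays were above the S. pombe level, and the groups did not overlap. The log2 fold change was -1.02 ± 0.05 (SE, adjusted p = 1.81e-04, n = 3 each), which is 2.02-fold lower in the mutant. This is a value of the transcript. For the protein, the paper reports mildly raised Euc1 in cells with this exchange, measured on Western blots. MED11, the Mediator subunit gene directly beside EUC1, had levels of 10.45, 10.54 and 10.40 in euc1-K231R and 10.33, 10.35 and 10.36 in wild type. It was not called (0.11 ± 0.05 SE, adjusted p = 0.259).

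Of the 5581 genes 50 were called (0.896%), 10 higher (0.179%) and 40 lower (0.717%) in euc1-K231R, while 1080 (19.4%) had an unadjusted p under 0.05, of which 499 were higher (8.94%) and 581 lower (10.4%). All 50 had mutant arrays that lay apart from the wild-type arrays, as did 25.8% of all genes, and the narrowest gap among the 50 was 0.19, for YLR297W. The median size of change was 0.54 among called genes and 0.071 over all genes. Changes above 1 on the log2 scale were called in 6 genes, changes of 0.5 to 1 in 25 and smaller ones in 19. The rises over 0.5 were those of URA3, PTR2 and COS8, and 28 of the 40 falls were larger than 0.5. The count depended on single arrays: when replicate 2 of euc1-K231R was left out it was 11, when replicate 1 of wild type was left out 17 and when replicate 2 of wild type was left out 24, but 103 without euc1-K231R replicate 3. No uncalled gene differed by more than 1. Of the 28 uncalled genes that differed by more than 0.5, 27 were lower in the mutant, and in 6 of the 28 both means lay under the S. pombe level.

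**Figure D1:**
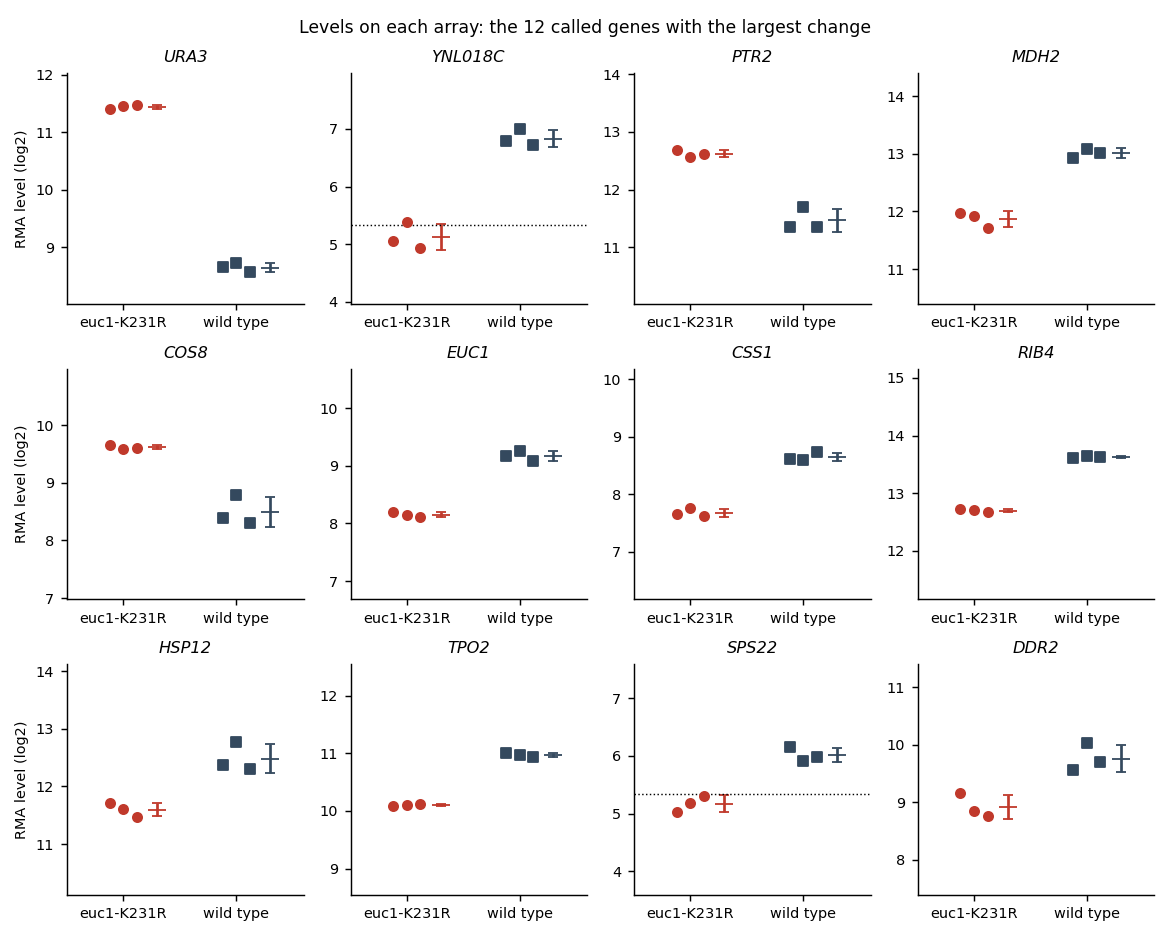
RMA levels (log2) of the 12 called genes with the largest change on each of the 3 euc1-K231R arrays (circles) and 3 wild-type arrays (squares), with the mean and SD beside the points. Every panel spans the same range of 4 log2 units, and the dotted line marks the S. pombe 95th percentile (5.33), which crosses the mutant points of YNL018C and lies just above those of SPS22.

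The fold changes depended on the level of a gene. Among the 219 genes with a mean between the S. pombe level and 7, 84.5% were lower in euc1-K231R and the median log2 fold change was -0.19. It was -0.13 for the 150 genes under the S. pombe level, -0.034 for the 695 genes from 7 to 9, 0.019 for the 2264 genes from 9 to 11, 0.013 for the 1695 genes from 11 to 13 and -0.0034 for the 558 genes above. Of the 40 falls 12 lay at a mean of 7 or less, and no rise did. After quantile normalisation over the S. cerevisiae genes the median between the S. pombe level and 7 was 0.015. That normalisation gave 25 rises and 44 falls in place of 10 and 40, kept 39 of the 50 calls and ended those of YFL012W, HOP1, GAC1, PEX9, PDR18, MIN4, SPO1, PHM8, PNT1, AIF1 and ICS2. The S. pombe probe sets themselves had a median difference of 0.031 between euc1-K231R and wild type.

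**Figure D2:**
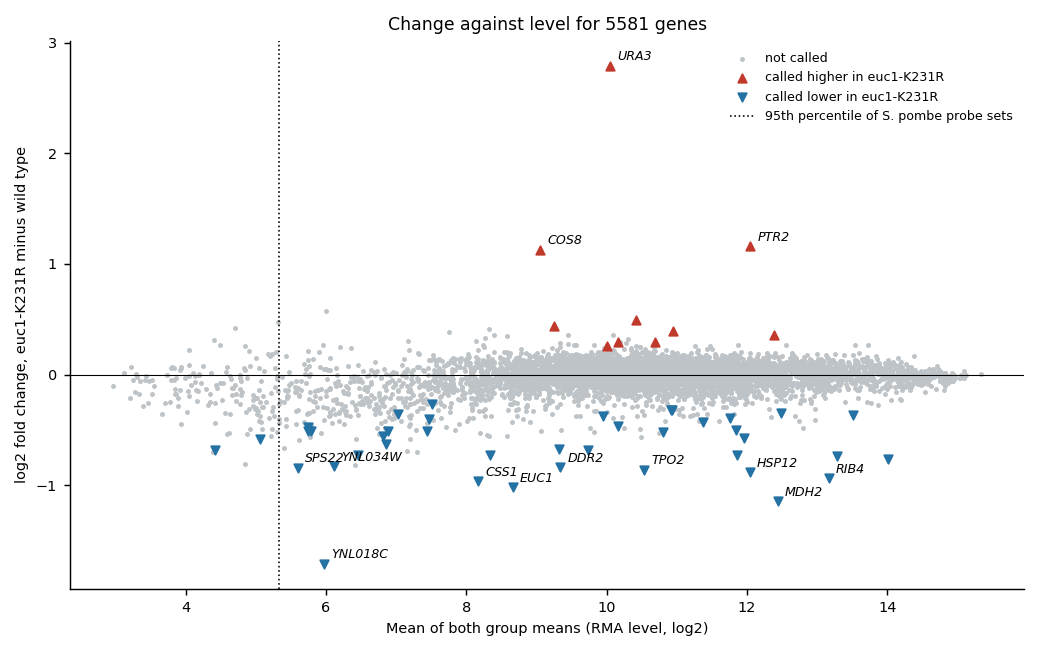
Log2 fold change (euc1-K231R minus wild type) against the mean of both group means (RMA level, log2) for 5581 genes. Upward triangles mark the 10 genes called higher, downward triangles the 40 called lower, and the dotted line is the S. pombe 95th percentile at 5.33, to the right of which the cloud of genes sits below 0 up to a level of about 7.

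The largest rise was that of URA3, which encodes orotidine-5′-phosphate decarboxylase of pyrimidine synthesis and is the marker of the mutant allele. Its levels were 11.41, 11.45 and 11.48 in euc1-K231R and 8.66, 8.73 and 8.57 in wild type, which gave 2.79 ± 0.05 on the log2 scale (SE, adjusted p = 3.24e-07). The array carries 3 further probe sets for URA3 among its controls, which lie towards the 5′ end, in the middle and towards the 3′ end. At the 5′ end the levels were 10.66, 10.999 and 11.07 in euc1-K231R and 7.51, 7.25 and 7.16 in wild type (3.60 ± 0.13 SE, adjusted p = 5.31e-05). In the middle the log2 fold change was 2.82 ± 0.05 (SE, adjusted p = 1.38e-06), and at the 3′ end it was 2.52 ± 0.09 (SE, adjusted p = 5.31e-05). These adjusted p-values are from a limma fit of all 10928 probe sets.

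The URA3 probe sets thus differed from each other in how much higher they were in the mutant. The level at the 5′ end minus that at the 3′ end was 0.59, 0.72 and 0.74 on the euc1-K231R arrays and -0.32, -0.37 and -0.51 on the wild-type arrays, a difference of 1.08. An exact two-sided permutation test gave p = 0.1, the smallest that 3 against 3 arrays allow. The other 7 transcripts with such control sets (ACT1, EAF5, RIP1, SPT15, SRB4, TDH1 and WBP1) had differences between -0.23 and 0.06. Averaged over these 7, the level at the 5′ end minus that at the 3′ end, which falls as RNA breaks, was -1.51, -1.47 and -1.31 in euc1-K231R and -1.46, -1.28 and -1.304 in wild type, so the groups overlapped.

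**Figure D3:**
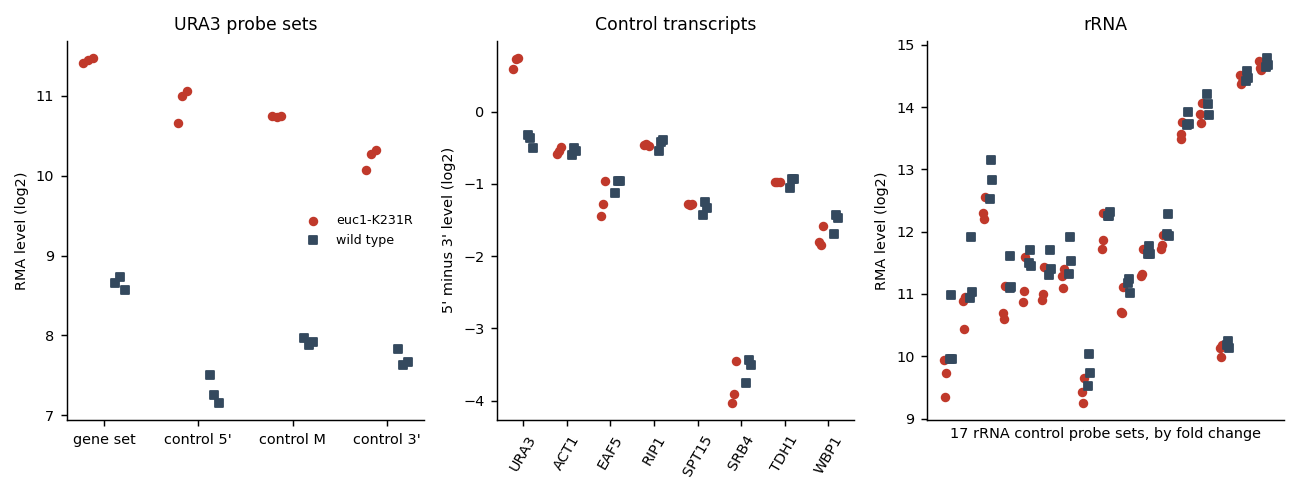
Left, levels (log2) of the gene probe set of URA3 and of its 5′, middle (M) and 3′ control sets on the 3 euc1-K231R arrays (circles) and the 3 wild-type arrays (squares). Centre, the 5′ minus the 3′ level for 8 control transcripts, where only URA3 is above 0 and only in euc1-K231R, and right, levels of the 17 rRNA control sets, each with a lower mean in euc1-K231R.

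Other steps of the same pathway fell. URA1, the dihydroorotate dehydrogenase gene, had levels of 13.59, 13.67 and 13.62 in euc1-K231R and 14.38, 14.36 and 14.42 in wild type, and URA4, the dihydroorotase gene, 12.95, 12.95 and 12.86 in euc1-K231R and 13.66, 13.61 and 13.69 in wild type. Their log2 fold changes were -0.76 ± 0.04 and -0.73 ± 0.05 (SE). Both are activated by Ppr1 when pyrimidine intermediates accumulate, and PPR1 itself had a value of -0.01. Of 19 measured genes of pyrimidine synthesis and salvage 1 rose, 2 fell and 16 were not called, where 0.179% of all genes were called higher and 0.717% lower. Their median was -0.01 against 0.0037 over all genes. The nearest to the threshold were the uridine permease gene FUI1, at 12.88, 12.77 and 12.65 in euc1-K231R and 13.13, 13.28 and 13.13 in wild type (adjusted p = 0.0519), and URA2, at 13.55, 13.59 and 13.62 in euc1-K231R and 13.83, 13.77 and 13.91 in wild type (adjusted p = 0.0766). Further marker genes of yeast genetics were not called, with LEU2 at -0.25 ± 0.07 (SE, adjusted p = 0.149) as the one with the smallest p.

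Of the genes of peptide and amino acid uptake, PTR2 rose and GAP1 and AGP1 fell. PTR2, which encodes the importer of di- and tripeptides, had levels of 12.69, 12.57 and 12.62 in euc1-K231R and 11.35, 11.70 and 11.35 in wild type (1.16 ± 0.10 SE, adjusted p = 0.00198). AAP1, which encodes an alanine and arginine aminopeptidase, had levels of 11.09, 11.17 and 11.15 in euc1-K231R and 10.70, 10.75 and 10.77 in wild type (0.40 ± 0.04 SE). GAP1, the general amino acid permease, was at 9.56, 9.28 and 9.36 in euc1-K231R and 9.95, 10.21 and 10.08 in wild type, and AGP1, a permease of broad specificity, at 11.74, 11.55 and 11.51 in euc1-K231R and 12.04, 12.24 and 12.03 in wild type. Their log2 fold changes were -0.68 ± 0.09 (SE, adjusted p = 0.021) and -0.50 ± 0.08 (SE, adjusted p = 0.0483).

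Counted over the lists, 1 of 14 genes of peptide uptake and its control rose and 13 were not called, 1 of 22 amino-, carboxy- and dipeptidase genes rose, and 2 of 20 amino acid permease genes fell. Of all genes 0.179% were called higher and 0.717% lower. The medians of these lists were 0.013, -0.0093 and -0.065. DUG1, a dipeptidase gene of glutathione breakdown, lay just short of the threshold at 13.92, 13.88 and 13.78 in euc1-K231R and 13.58, 13.63 and 13.58 in wild type (adjusted p = 0.0657). Among the permease genes MMP1, HIP1 and CAN1 had values of -0.29, -0.18 and -0.17 and were not called. GAP1 was also the single fall among 27 genes under nitrogen catabolite repression, whose median was -0.0014. AQR1, which encodes an exporter of amino acids and short-chain acids, was at 11.74, 11.50 and 11.25 in euc1-K231R and 12.17, 12.35 and 12.15 in wild type (-0.72 ± 0.12 SE, adjusted p = 0.0483).

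Among the genes of carbon metabolism MDH2, the cytosolic malate dehydrogenase of gluconeogenesis, had levels of 11.97, 11.92 and 11.71 in euc1-K231R and 12.92, 13.09 and 13.02 in wild type (-1.15 ± 0.08 SE, adjusted p = 6.52e-04). ADR1, an activator of glucose-repressed genes, was at 7.93, 7.97 and 8.02 in euc1-K231R and 8.60, 8.70 and 8.80 in wild type (-0.72 ± 0.06 SE, adjusted p = 0.00171). VID24, the subunit that lets the GID ubiquitin ligase recognise gluconeogenic enzymes, was at 10.67, 10.58 and 10.39 in euc1-K231R and 11.03, 11.14 and 11.03 in wild type (-0.52 ± 0.07 SE). The groups did not overlap in any of these genes, as in 25.8% of all genes.

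Of 32 genes of gluconeogenesis, the glyoxylate cycle and alternative carbon sources, 2 fell and 30 were not called, where 0.717% of all genes were called lower. Of the 32 genes 12 had an unadjusted p under 0.05, all lower in the mutant, where 10.4% of all genes were lower at that p. ADY2 (-0.38), PCK1 (-0.39), ADH2 (-0.54) and FBP1 (-0.42) had adjusted p-values of 0.0657 to 0.0836. The list's median was -0.076, and -0.012 after quantile normalisation. In the citric acid cycle LSC2, the succinyl-CoA ligase beta subunit, fell by 0.32 on the log2 scale to 10.73, 10.87 and 10.73 in euc1-K231R, against 11.10, 11.11 and 11.07 in wild type, while the median of the 20 genes was 0.077 and ACO1 and IDH1 had values of 0.18 and 0.19. MAL33, an activator of maltose genes, fell (-0.51 ± 0.08 SE), and the transporter gene of the MAL3 locus, MAL31, was not called (-0.32 ± 0.07 SE, adjusted p = 0.0804). None of 16 hexose transport genes was called, and HXT4 came nearest (-0.42 ± 0.08 SE, adjusted p = 0.0597). At an unadjusted p under 0.05, 5 of the 16 were lower, against 10.4% of all genes.

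Metal homeostasis was represented by FRE4, LSO1 and IZH4. FRE4, a ferric reductase gene of siderophore iron uptake, had levels of 9.12, 9.02 and 8.80 in euc1-K231R and 9.66, 9.77 and 9.54 in wild type (-0.68 ± 0.09 SE, adjusted p = 0.0255). LSO1, a small iron-responsive gene, was called lower, but its means of 4.08 in euc1-K231R and 4.76 in wild type were both under the S. pombe level. IZH4, a membrane protein gene linked to zinc, was at 11.69, 11.66 and 11.67 in euc1-K231R and 12.31, 12.35 and 12.09 in wild type (-0.58 ± 0.07 SE, adjusted p = 0.0151). Its relatives IZH1 (-0.23) and IZH2 (-0.21) were not called.

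Of 36 genes of iron uptake and the Aft1 regulon 28 had values below 0, where the median over all genes was 0.0037. At an unadjusted p under 0.05, 15 of the 36 were lower, against 10.4% of all genes. Only FRE4 and LSO1 were called, where 0.717% of all genes were called lower. The median of the list was -0.14, and -0.10 after quantile normalisation. The siderophore transporter genes ENB1 and SIT1 had the smallest p among the uncalled members. SIT1 was at 11.49, 11.39 and 11.28 in euc1-K231R and 11.74, 11.92 and 11.76 in wild type, and ENB1 at 11.16, 11.16 and 11.11 in euc1-K231R and 11.37, 11.44 and 11.37 in wild type, both with an adjusted p of 0.0519. FET3, the multicopper oxidase of high-affinity iron uptake, followed at -0.31 ± 0.07 (SE, adjusted p = 0.0864).

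TPO2, the gene of a plasma membrane exporter of polyamines, fell with little spread, at 10.09, 10.10 and 10.12 in euc1-K231R and 10.997, 10.98 and 10.93 in wild type (-0.86 ± 0.04 SE, adjusted p = 1.1e-04). It also belongs to the weak acid response, whose main activator is Haa1, and 2 more of the 13 genes on that list fell, where 0.717% of all genes were called lower. YRO2, a membrane protein gene, was at 11.52, 11.58 and 11.59 in euc1-K231R and 11.82, 12.02 and 12.04 in wild type (-0.40 ± 0.07 SE, adjusted p = 0.0486). PHM8, a phosphatase gene that also responds to phosphate starvation, was at 7.29, 7.29 and 7.204 in euc1-K231R and 7.54, 7.77 and 7.67 in wild type (-0.40 ± 0.06 SE, adjusted p = 0.0483).

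The weak acid list had a median of -0.093, and -0.10 after quantile normalisation, with 10 of 13 genes not called. TPO3, the nearest relative of TPO2, had levels of 7.53, 7.95 and 8.65 in euc1-K231R and 8.54, 8.39 and 8.86 in wild type, which overlapped. Of 17 polyamine genes TPO2 was the single call, and the exporter gene TPO4 had a value of 0.36 ± 0.08 (SE, adjusted p = 0.112). PHM8 was the single call among 25 phosphate starvation genes, with PHO5 at -0.37 (adjusted p = 0.116).

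Of 34 general stress genes 3 fell and 31 were not called, where 0.717% of all genes were called lower. Their median was -0.096. HSP12, a small heat shock protein that stabilises membranes, had levels of 11.71, 11.61 and 11.47 in euc1-K231R and 12.37, 12.77 and 12.31 in wild type (-0.88 ± 0.12 SE, adjusted p = 0.0268). DDR2, a stress gene of unclear function, was at 9.16, 8.84 and 8.77 in euc1-K231R and 9.56, 10.02 and 9.69 in wild type (-0.84 ± 0.14 SE, adjusted p = 0.0486). SIP18, a hydrophilin gene of desiccation tolerance, was at 6.06, 6.13 and 6.08 in euc1-K231R and 6.73, 7.03 and 6.68 in wild type (-0.72 ± 0.09 SE, adjusted p = 0.0187). For all 3 genes wild-type replicate 2 was the highest array of the 6.

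The mean of the 34 stress genes was 9.59, 9.54 and 9.49 in euc1-K231R and 9.66, 9.81 and 9.67 in wild type. The groups did not overlap, and wild-type replicate 2 was again the highest. Such a separation was not particular to the stress list. The means of the iron, weak acid, gluconeogenesis and hexose transport lists were also apart, and lower in euc1-K231R. Those of the chaperone and cell cycle lists were apart and higher. The stress mean includes HSP12, DDR2 and SIP18, so it is not separate from their falls, and a mean without them was not tested. Taken singly, 13 of the 34 genes did not overlap, in either direction, against 25.8% of all genes. Without wild-type replicate 2 HSP12 and SIP18 were still called and DDR2 was not. SPG4, a stationary phase gene, had one of the largest differences of any uncalled gene (-0.81 ± 0.15 SE, adjusted p = 0.0657). Of 21 genes of trehalose and glycogen 1 fell, GAC1 (-0.51 ± 0.08 SE), a targeting subunit of the phosphatase that activates glycogen synthase. At an unadjusted p under 0.05 they held 6 higher and 4 lower genes, against 8.94% and 10.4% of all genes, and their median was 0.079. None of 30 chaperone genes was called, and their median was 0.064. Of the 30, 24 had values above 0. They held 9 higher and 0 lower genes at an unadjusted p under 0.05, against 8.94% and 10.4% of all genes.

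The mean of the 17 control probe sets for ribosomal RNA was also highest on wild-type replicate 2. Ribosomal RNA has no regular poly(A) tail, the feature from which the labelling starts, so these sets vary with how the RNA was prepared. All 17 had a lower mean in euc1-K231R, with log2 fold changes of -0.62 to -0.05, 3 had an unadjusted p under 0.05 and the smallest adjusted p was 0.336 in the limma fit of all probe sets. Their mean level was 11.68, 11.58 and 11.91 in euc1-K231R and 11.90, 12.24 and 11.93 in wild type, which overlapped. Their part in the falls of the stress genes was not tested.

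RIB4, the lumazine synthase gene of riboflavin synthesis, had the smallest p after URA3. Its levels were 12.73, 12.70 and 12.67 in euc1-K231R and 13.61, 13.65 and 13.64 in wild type, which gave -0.93 ± 0.04 on the log2 scale (SE, adjusted p = 8.36e-05). The other 9 measured genes of riboflavin and flavin nucleotides were not called, RIB5 being the nearest (-0.18 ± 0.04 SE, adjusted p = 0.105). MCH4, a relative of monocarboxylate permeases, also fell, at 10.75, 10.70 and 10.80 in euc1-K231R and 11.09, 11.04 and 11.10 in wild type (-0.32 ± 0.04 SE, adjusted p = 0.0268).

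CSS1, which encodes a serine- and threonine-rich secreted protein, was at 7.66, 7.76 and 7.63 in euc1-K231R and 8.62, 8.59 and 8.73 in wild type (-0.96 ± 0.06 SE, adjusted p = 2.54e-04). HPF1, a mannoprotein gene of related sequence, was at 13.41, 13.30 and 13.25 in euc1-K231R and 13.64, 13.75 and 13.68 in wild type (-0.37 ± 0.06 SE, adjusted p = 0.0433). Related sequences can share probes, so the 2 values may not be independent. The cell wall gene PIR3 fell (-0.37 ± 0.06 SE), as the single call on a list of 32 cell wall mannoprotein genes, which does not hold HPF1 or CSS1 and had a median of -0.011. ORM2, a brake on sphingolipid synthesis, fell to 12.34, 12.31 and 12.28 in euc1-K231R, against 12.63, 12.71 and 12.61 in wild type (-0.35 ± 0.05 SE, adjusted p = 0.021). PDR18, an ABC transporter gene, fell at a level near the background (means of 5.49 in euc1-K231R and 5.99 in wild type) as the single call among 27 multidrug resistance genes.

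The remaining calls belonged to none of these groups. Falls were called in GPG1 (-0.63 ± 0.09 SE), linked to G protein signalling, MAK31 (-0.43 ± 0.07 SE), a subunit of an N-terminal acetyltransferase, MIN4 (-0.51 ± 0.09 SE) and PNT1 (-0.27 ± 0.04 SE), both mitochondrial. Rises were called in COS8, YGR035C, ICS2, ICY1, AIF1, SDD2 and YLR297W besides the genes above. COS8, a member of a family of membrane proteins encoded near chromosome ends, was at 9.66, 9.59 and 9.60 in euc1-K231R and 8.39, 8.78 and 8.30 in wild type (1.13 ± 0.12 SE, adjusted p = 0.0074). Its family is close in sequence and may share probes; of the 6 members with a probe set of their own the other 5 were not called, with values from -0.36 to 0.19.

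YGR035C, a gene of unknown function, was at 10.70, 10.71 and 10.57 in euc1-K231R and 10.14, 10.24 and 10.11 in wild type (0.49 ± 0.06 SE, adjusted p = 0.0141). ICS2 (0.44), ICY1 (0.30) and YLR297W (0.26) are also of unknown function. AIF1, a mitochondrial protein gene linked to cell death, was at 10.30, 10.32 and 10.29 in euc1-K231R and 9.96, 9.99 and 10.08 in wild type (0.29 ± 0.05 SE, adjusted p = 0.0476).

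Several falls were measured at low levels, where most genes were lower in the mutant. YNL018C, of unknown function, had the largest fall of all, at 5.05, 5.38 and 4.94 in euc1-K231R and 6.79, 6.99 and 6.72 in wild type (-1.71 ± 0.12 SE, adjusted p = 7.13e-04), with 1 of the 3 mutant arrays above the S. pombe 95th percentile and the mutant mean under it. Its duplicate YNL034W was at 5.93, 5.67 and 5.52 in euc1-K231R and 6.50, 6.71 and 6.40 in wild type (-0.83 ± 0.12 SE, adjusted p = 0.0268). The pair is similar in sequence, so that probes may not keep them apart. YFL012W, of unknown function, was at 5.51, 5.46 and 5.57 in euc1-K231R and 6.06, 5.96 and 5.92 in wild type (-0.47 ± 0.05 SE, adjusted p = 0.0114).

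Genes of meiosis and sporulation, which cells growing in glucose keep low, were in part in this range: 14 of 65 had both means under the S. pombe level. SPS22, of the spore wall, was at 5.03, 5.18 and 5.31 in euc1-K231R and 6.15, 5.92 and 5.98 in wild type (-0.84 ± 0.09 SE, adjusted p = 0.0074). All its mutant arrays lay under the S. pombe 95th percentile, and measured against that percentile it was at least 1.61-fold lower. HOP1, of the meiotic chromosome axis, was at 6.50, 6.51 and 6.61 in euc1-K231R and 7.25, 7.01 and 7.02 in wild type (-0.55 ± 0.07 SE, adjusted p = 0.021), and SPO1, a meiotic phospholipase-like gene, at 6.81, 6.96 and 6.80 in euc1-K231R and 7.203, 7.27 and 7.17 in wild type (-0.36 ± 0.06 SE, adjusted p = 0.0483). The other 62 were not called, among them ZIP2, with all mutant arrays under the S. pombe 95th percentile, MSH4 (-0.43) and CRR1 (0.30). Over all genes 0.717% were called lower. The median of the meiosis and sporulation list was -0.11, and -0.00092 after quantile normalisation.

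Among the ORFs next to ub-hotspots 3 of 23 measured genes were called, 1 higher and 2 lower, against 0.896% of all genes, with a median of 0.018 over the list. The list, of 25 ORFs, is wider than the set of genes that the paper counts in direct proximity. Of the 15 alternatives of the processing, the calls of SSF2, SDD2 and PEX9 held in 10, 9 and 5. SSF2, a ribosome assembly factor gene, was at 9.85, 9.95 and 9.998 in euc1-K231R and 10.49, 10.35 and 10.35 in wild type (-0.46 ± 0.06 SE, adjusted p = 0.021). SDD2, a gene of unclear function, was at 12.53, 12.59 and 12.56 in euc1-K231R and 12.16, 12.29 and 12.16 in wild type (0.36 ± 0.05 SE, adjusted p = 0.0268). PEX9, a peroxisomal import receptor gene, was at 4.57, 4.83 and 4.92 in euc1-K231R and 5.46, 5.28 and 5.33 in wild type. All mutant arrays of PEX9 and wild-type replicates 2 and 3 lay under the S. pombe 95th percentile. With a wild-type mean of 5.35, PEX9 was thus near background in both groups, and the filter at the S. pombe level left it out. Against that floor it was only at least 1.02-fold lower (measured -0.58 ± 0.09 SE, adjusted p = 0.0483). Of the uncalled members SPO20 (-0.40 ± 0.12 SE, adjusted p = 0.153) and ATG19 (0.17 ± 0.06 SE, adjusted p = 0.182) had the smallest p, and the mutant mean of SPO20 lay under the S. pombe level. SSF1, the paralogue of SSF2, had a value of -0.15 ± 0.05 (SE, adjusted p = 0.178).

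The 50 genes were spread over 14 chromosomes, with 8 on chromosome XV, 7 on XIV and 6 on XIII, where EUC1 lies. None of the 90 measured direct neighbours of a called gene was called by limma, and 18.9% of them had an unadjusted p under 0.05, against 19.4% of all genes. HSP12 and YFL012W lay 2 places apart, the closest pair among the calls. Within the outermost 10 genes of a chromosome arm 6 of 186 tested genes were called (3.23%, against 0.896% of all genes): COS8, URA1, CSS1, AIF1, PDR18 and MAL33. They included both directions.

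Of 41 gene lists 24 held at least 1 called gene, and 19 called genes were on no list. The medians of the 17 lists without a call lay between -0.17, for the alpha-specific genes, and 0.081. They were -0.034 for 121 cytosolic ribosomal protein genes, 0.034 for 34 proteasome genes, 0.015 for 20 genes of purines and IMP dehydrogenase and 0.081 for 35 genes of the cell cycle and replication. Of these 35 genes 32 had values above 0. At an unadjusted p under 0.05, 13 of the 35 were higher (RNR1 at 0.19, MCM3 at 0.17), against 8.94% of all genes. Genes of SUMO, SUMO-targeted ligases and Cdc48 (27) and of SWR1, H2A.Z and Rpd3 (29) had medians of 0.045 and 0.073. MMS21, a SUMO ligase gene, had the smallest p among the SUMO genes, at 5.14, 5.46 and 5.37 in euc1-K231R and 6.01, 6.10 and 5.64 in wild type (-0.59 ± 0.13 SE, adjusted p = 0.0994), with the mutant mean under the S. pombe level. Markers of mating type were not called either, in 7 a-specific genes (BAR1 at -0.36, adjusted p = 0.108), 5 alpha-specific genes (SAG1 at 0.15) or 27 genes of the pheromone response (PRM2, with the smallest p, had both means under the S. pombe level).

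**Figure D4:**
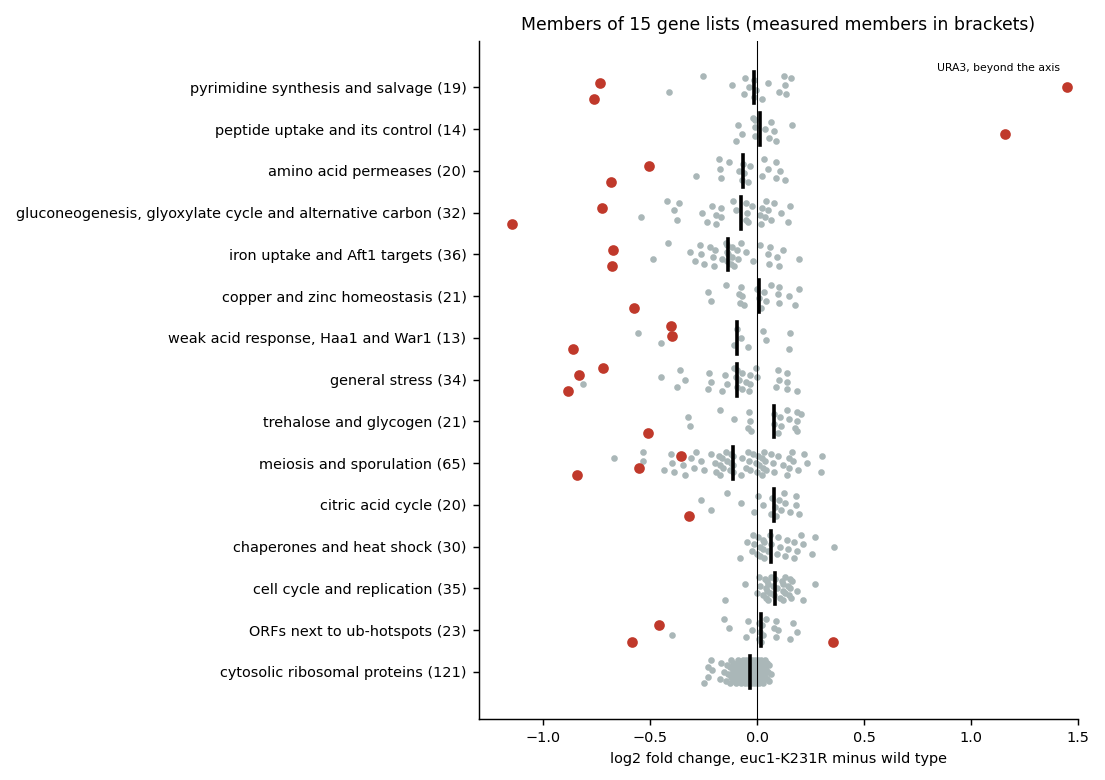
Log2 fold changes (euc1-K231R minus wild type) of the measured members of 15 gene lists, with called genes as large points, other members as small points and the list's median as a bar. URA3 lies at 2.79, beyond the axis. The medians are within 0.1 of 0 except those of the iron (-0.14) and meiosis (-0.11) lists.

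The euc1∆ strain, compared with its own wild type, was used to show which of these values differ in a strain without EUC1. There MED11, beside EUC1, was called lower (-0.76 ± 0.06 SE, adjusted p = 0.0147), while URA3 was not called. The loss of Euc1, the fall of MED11, the URA3 marker of the other strain and the experiment cannot be told apart in this contrast. The 2 comparisons share no array, and 7 of 5581 genes (0.125%) were called in euc1∆. Of the 50 genes called in euc1-K231R, EUC1 and COS8 were also called in euc1∆ and 48 were not. The sign was the same in both mutants for 22 of the 50 (44%), against 51.8% of all genes, and 9 of the 50 had an unadjusted p under 0.05 in euc1∆ (12.4% of all genes). The median size of the euc1∆ value was 0.094 over the 50 genes and 0.051 over all genes.

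A limma fit with all 12 arrays gave the test of the euc1-K231R effect minus the euc1∆ effect. It passed an adjusted p of 0.05 for 70 genes (1.25%), 27 with a higher and 43 with a lower effect in euc1-K231R, and 25 of these were among the 50. Leaving out 1 of the 12 arrays gave 21 to 75 such genes. For COS8 the effects were 1.13 ± 0.12 in euc1-K231R and 0.87 ± 0.05 in euc1∆ (SE), with a difference of 0.26 (95% interval -0.05 to 0.57, adjusted p = 0.375). For SSF2 they were -0.46 ± 0.06 and -0.84 ± 0.11 (SE), with a difference of 0.38 (0.09 to 0.66, adjusted p = 0.179). For YNL018C, whose euc1-K231R mean lay under the S. pombe level, at -1.71 ± 0.12 in euc1-K231R and -0.55 ± 0.08 in euc1∆ (SE), the difference of -1.16 passed (adjusted p = 0.00564). PDR18 had values of -0.51 in euc1-K231R and -0.32 in euc1∆, and their difference of -0.19 did not pass (95% interval -0.43 to 0.05).

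PTR2 went in opposite directions, with 1.16 ± 0.10 in euc1-K231R and -0.24 ± 0.05 in euc1∆ (SE), which was not called, and a difference of 1.40 (adjusted p = 7.57e-05). MDH2, RIB4, URA1 and URA4 had values of 0.10, 0.08, 0.03 and 0.07 in euc1∆, and the differences, -1.24, -1.01, -0.80 and -0.80, all passed. TPO2 had spread widely in experiment A, at 12.33, 11.996 and 11.35 in euc1∆ and 11.43, 12.06 and 11.86 in its wild type, and its difference of -0.97 did not pass (adjusted p = 0.135). URA3 had a value of 0.01 ± 0.05 (SE) in euc1∆. For 25 of the 50 genes a difference between the mutants was not detected at this number of arrays.

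**Figure D5:**
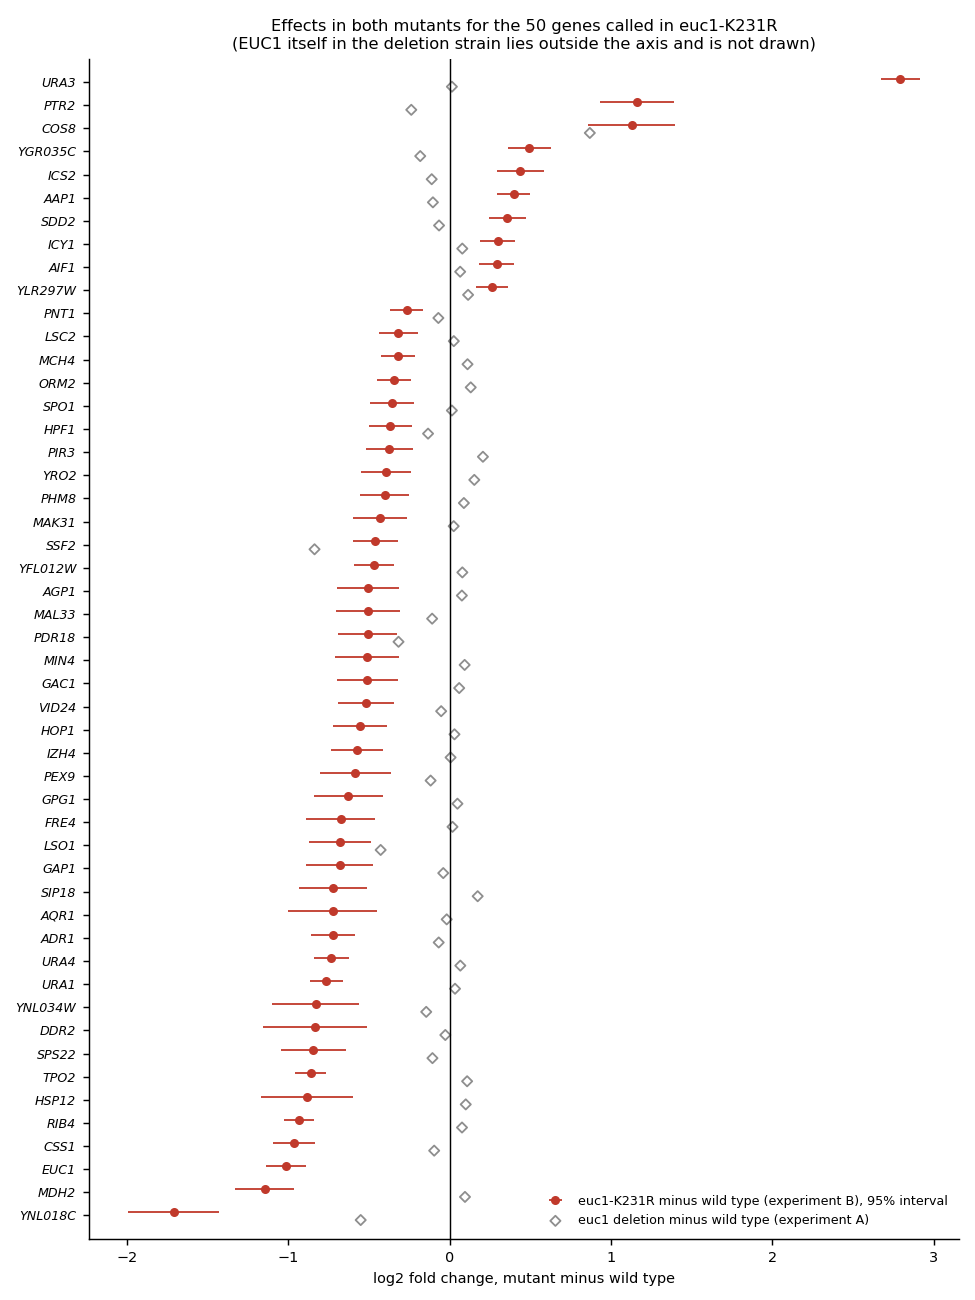
Log2 fold changes of the 50 genes called in euc1-K231R, with filled circles and 95% intervals for euc1-K231R minus wild type in experiment B and open diamonds for euc1∆ minus wild type in experiment A. Among the diamonds that stand away from 0 are those of COS8, SSF2 and YNL018C, and also those of LSO1 (-0.43), PDR18 (-0.32) and PTR2 (-0.24). Those of URA3, RIB4, URA1 and URA4 lie within 0.1 of 0. The euc1∆ value of EUC1 itself (-5.36) is not drawn.

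The threshold fell within a dense run of genes. Just inside it stood DDR2, MAK31, YRO2, MIN4 and MAL33, all with an adjusted p of 0.0486, and just outside it ENB1, ATX2, SIT1, YGL230C and FUI1, all with an adjusted p of 0.0519. The largest differences without a call were SPG4 (-0.81), PHO92 (-0.81), YGR174W-A, PCH2 and EDS1 (-0.70), of which PHO92, PCH2 and YGR174W-A had both means under the S. pombe level. The calls of URA3, RIB4, TPO2, EUC1, URA1, CSS1, URA4, MDH2, YNL018C, ADR1 and PTR2 held in all 6 fits that left out 1 array. COS8 and SPS22 were lost without euc1-K231R replicate 2 alone (adjusted p = 0.0692 for each), where 11 calls held. HSP12, SIP18, AAP1, IZH4, SSF2, LSO1, YFL012W and YGR035C were lost without euc1-K231R replicate 2 or wild-type replicate 1, GAP1 without either replicate 2 and HOP1 without euc1-K231R replicate 1 or 2. PHM8, SPO1, PNT1 and LSC2 were lost in every one of these 6 fits.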

How the data were processed

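Experiment B was measured on 6 arrays, and experiment A on 6 more served for the comparison with euc1∆. The log2 levels used are those that the authors deposited after RMA, which includes a background correction, a quantile normalisation and 1 summary value per probe set. RMA and limma are named in the submitters' processing notes, with versions not given in the sources used here. Further deposited tables, 1 per mutant, hold the authors' own fold changes with their p-values, which were not used, and gene names, which were. Levels were compared only within an experiment.

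Of 10928 probe sets, 5713 carried an S. cerevisiae name. The 132 with a suffix for several transcripts were left out, which left 5581 genes. Of these 5564 were found in the NCBI RefSeq table of assembly R64, which gave 5098 symbols and the order of genes; no coordinates were used. The 4999 S. pombe probe sets gave the background. Precision is limited by the number of arrays.

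Groups were taken from the sample titles and fitted with limma 3.58.1 (lmFit and eBayes) in R 4.3.3, two-sided, without a replicate block. Alternatives were quantile normalisation, median centring, a filter at the S. pombe level, a trended and robust prior, a 12-array fit, all probe sets, the multiple-transcript probe sets, a replicate block, a minimum change of 0.2 (treat) and leaving out each array. Both tests were checked on simulated data with 200 of 5581 genes changed, in which arrays did not stand apart as some do here, so that its recovery is not a measure of what these arrays can show. The comparison, gene lists and named genes were chosen with earlier results of these data known, so no list was tested as a set. Every called gene could be named, with full values for the 12 largest changes, and of each list the called members and up to 3 more with the smallest p. Also named were EUC1 and its neighbours, pyrimidine genes, ORFs next to ub-hotspots, control probe sets, the 5 genes on either side of the threshold and the 5 largest uncalled changes. Figures were drawn with matplotlib.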

Additional observations from a re-analysis of the deposited data

Results flagged for a closer look

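The effect of euc1-K231R minus that of euc1∆ passed the test of the difference (limma over 12 arrays, adjusted p under 0.05) for 70 genes. Those of them that were chosen to be named are given here on the log2 scale. Other members of the gene lists were not looked up among the 70. EUC1 itself differed by 4.34, with fold changes of -1.02 in euc1-K231R and -5.36 in euc1∆. The neighbour MED11 differed by 0.88, with 0.11 in euc1-K231R and -0.76 in euc1∆, where it was called lower. The marker gene URA3 differed by 2.78 and the peptide transporter gene PTR2 by 1.40. The difference was -1.24 for MDH2, -1.16 for YNL018C, -1.01 for RIB4, -0.87 for CSS1, -0.80 for URA1 and URA4 and -0.66 for ADR1.

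Smaller positive differences were those of ICS2 (0.55), AAP1 (0.50) and SDD2 (0.42). Negative ones were those of HSP12 (-0.98), SIP18 (-0.90), AQR1 (-0.71), FRE4 (-0.69), GPG1 (-0.68), GAP1 (-0.64), AGP1 and HOP1 (-0.58 each), YFL012W (-0.55), ORM2 (-0.48), MCH4 (-0.43) and LSC2 (-0.34). Among genes not called in euc1-K231R, PHO92 differed by -1.26, PCK1 by -0.57, GND2 by -0.53, DUG1 by 0.30 and ACO1 by 0.24. For PHO92 both means of euc1-K231R and its wild type lay under the S. pombe level.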

How the results depend on the processing

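Of the 50 calls, those of URA3, RIB4, EUC1, URA1, CSS1, URA4, MDH2, YNL018C, ADR1 and PTR2 held in all 15 alternatives. TPO2 held in all but the 12-array fit. No called gene changed direction in any alternative. The calls of the other 39 were lost in at least 1. The number called was 124 (37 higher and 87 lower) in the 12-array fit, 110 (21 and 89) after median centring, 69 (25 and 44) after quantile normalisation, 70 (16 and 54) with a trended, robust prior, 53 with a filter at the S. pombe level, 43 with the multiple-transcript probe sets added, and 13 (3 and 10) both over all probe sets and with a minimum change of 0.2. Median centring moved the median of all genes to -0.014. Leaving out 1 array gave 11 to 103 calls (2 to 26 higher, 9 to 77 lower), with the lowest of each count without euc1-K231R replicate 2 and the highest of each without euc1-K231R replicate 3, and the cause was not tested. The replicate numbers shared by the groups gave deviations with r = -0.22, -0.09 and 0.30, so the numbers were not taken as pairs. A fit with the replicate block called 27 genes (6 higher and 21 lower), 24 of them among the 50. The count of 70 genes whose effect differed between the mutants was 20 over all probe sets, 21 with the replicate block and 21 to 75 without 1 array. PPR1, which was not called, had a value of -0.01, and -0.032 to 0.017 without 1 array, with the sign changed without replicate 2 of either group of experiment B.

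With 3 arrays per group, the limma p-values set each difference against the spread between these arrays, moderated by the spread of all genes. Falls at levels under 7 lay in a range where most genes were lower in euc1-K231R, and part of these calls ended after quantile normalisation.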
